A study of Rattus norvegicus with 10 samples.

Results

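The genes described here are those of the proteasome, the protease complex that degrades ubiquitin-tagged proteins. They were chosen by symbol, as every gene whose symbol starts with Psma, Psmb, Psmc, Psmd, Psme or Psmf, without the 3 immunoproteasome subunits Psmb8, Psmb9 and Psmb10. Of 18025 genes listed, 43 had such a symbol, and 41 of them passed the filter (an average of 0.1 FPKM or more in all 10 libraries together) and were among the 14542 genes tested. FPKM are fragment numbers divided by gene length and library size, so that they can be compared between genes. The other two, Psma8 and Psmb11, which are known as the subunits of testis and thymus proteasomes, had between 0 and 9 reads in a library. Among the 41 were also Psmc3ip and Psme3ip1, which carry the name of a subunit they were found with and are not known as proteasome subunits.

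RNA of heart tissue of wild-type Sprague-Dawley rat fetuses was sequenced at embryonic day 19.5. In the hyperglycemia (HG) group, the dams, 3 months old, had been given streptozotocin in citric acid buffer by intraperitoneal injection on 3 days in a row, an agent that destroys the insulin-producing beta cells. In the control (CON) group, the dams had been given the buffer alone on the same days, and dams of both groups had been mated with normoglycemic males. There were 5 libraries per group. The labels do not say which fetuses shared a litter, so that p-values measure the spread between these libraries, and an effect of streptozotocin itself cannot be told apart from that of the glucose level.

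As background, the 26S proteasome is made of a barrel, the 20S core, capped by the 19S regulatory particle. The outer alpha rings of the core form its gate, and 3 subunits of the inner beta rings cut proteins. In the 19S particle, ubiquitin receptors catch the substrate, a deubiquitinase removes its ubiquitin chain and a ring of ATPases unfolds it and feeds it into the core. Other activators can cap the core in place of the 19S particle. In heart muscle this system turns over sarcomeric and other damaged proteins.

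Reads on genes, recovered from the steps between FPKM values, numbered between 16672876 and 19109844 per library. Proteasome genes had a median of 242 to 4640 reads per library, at which counting alone gives a coefficient of variation of 6.43% to 1.47%. Several cell types' markers differed between the groups. By the test described below, 28.4 percent of all genes tested were called higher and 11.8 percent lower. Counts near these shares do not set a list apart. Of 8 cardiomyocyte markers, 7 were lower and 1 (Nppa) higher in HG, and their summed FPKM ranged from 13076 to 13707 in CON and from 11562 to 13404 in HG. Of 4 smooth muscle markers 3 were higher (summed 651 to 778 FPKM in CON, 888 to 1121 in HG). All 8 proliferation genes were higher (328 to 365 in CON, 469 to 522 in HG). Of 6 erythroid markers 4 were lower (60.4 to 109.9 in CON, 40.4 to 58.0 in HG). Of 6 fibroblast markers, 2 were higher and 3 lower (1161 to 1338 FPKM in CON, 1051 to 1193 in HG), and of 6 macrophage and leukocyte markers, 3 were higher and 1 lower (22.0 to 27.6 and 24.2 to 33.5). Of 6 endothelial markers 2 were higher (248 to 270.1 and 257 to 279). Of 5 epicardial markers 1 was lower (9.71 to 16.0 FPKM in CON and 9.75 to 14.1 in HG), and the neural markers Sox10 and Th were at or near 0. Of 5 liver markers 4 were lower in HG (2 to 3 with any 1 library left out, 2 without CON replicate 3), and the library CON3 stood apart with 77.4 FPKM for the 5, against 3.15 to 7.87 in the other CON libraries and 1.33 to 2.60 in HG. The part of these in the results below was not tested, and in whole tissue fewer cells of a type and less RNA per cell cannot be told apart.

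Of the 41 proteasome genes, 38 had a difference above 0 in FPKM as deposited, beside 9518 of the 14542 genes tested. After scaling to the typical gene, 20 of the 41 were above 0, beside 7438 of the 14542. Of the 41, 15 passed the test as higher (36.6%), against 28.4 percent of all genes tested, and 1, Psme1, as lower (2.44%), against 11.8 percent. The test was limma on log2(FPKM + 0.1) with a Benjamini-Hochberg adjusted p under 0.05 over all genes tested. Among the 5964 genes within the same range of mean FPKM, 36.0% were called higher and 14.7% lower. The share of proteasome genes called higher was thus near that of the genes in this range. The differences were small, from -0.15 to 0.26 on the log2 scale, with a median of 0.08 beside 0.09 over all genes tested. None of the 41 was past an absolute log2 fold change of 1, which 1.94 percent of all genes were with an adjusted p under 0.05. The FPKM of the groups did not overlap in 10 of the 41 (24.4%), all higher in HG, against 19.3 percent of all genes higher and 8.12 percent lower.

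How many genes were called depended on how the libraries were put on a common scale. With median-of-ratios factors, which set the typical gene level between libraries, the calls were 2 higher (Psmd14 and Psmc1) and 1 lower (Psme1), where 15.7 percent of all genes were called higher and 17.5 percent lower. The median of the 41 was then -0.01, and 20 of them were above 0 in place of 38. With quantile normalization, 10 were higher and 0 lower (18.0 percent and 15.9 percent of all genes). With the hemoglobin genes left out, 9 were higher and 1 lower (25.6 percent and 12.3 percent). With FPKM rescaled to a common sum in every library, an alternative added after the data were seen, 23 were higher and 1 lower (34.1 percent and 9.85 percent). With voom on the recovered reads, also added later, 13 were higher and 1 lower (29.1 percent and 11.9 percent). Hemoglobin genes took 2.27 to 4.21% of the FPKM of CON libraries and 1.86 to 2.56% of those of HG. Of the 10 fits that each left out 1 library, the count of higher genes was lowest without CON replicate 4, at 9, and highest without HG replicate 2, at 14. Without CON replicate 3, the library with the liver markers, it was 10. Among the called genes, Psmd2 and Psmd13 lost their calls in 8 of these 10 fits, Psmc5 and Psmd8 in 7, Psmd1 in 5 and Psmd3 and Psmd11 in 3, and the other genes called higher and Psme1 in 0.

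Beside genes of the same FPKM range, the 41 genes had differences of narrow spread. That range was set by Psme1 (239 FPKM, rank 291 of all genes listed) and Psmd10 (9.81 FPKM, rank 6255). The median of the 41 was 81.7 FPKM (Psmc5, rank 900), so that the genes compared were not matched to them in level or depth. The SD of the log2 fold changes of the 41 was 0.078, beside 0.268 among the 5964 genes of the same FPKM range. An absolute log2 fold change above 0.25 was seen in 1 of the 41 (2.44%), Psmd14, and in 25.8% of those genes. Above 0.5 there was none, against 5.13%. Replicates of the proteasome genes also lay close together, with a median within-group SD of 0.066 on the log2 scale against 0.085 in that range. These shares are a description of the list, with no test, since the genes share a function and are not independent.

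**Figure D1:**
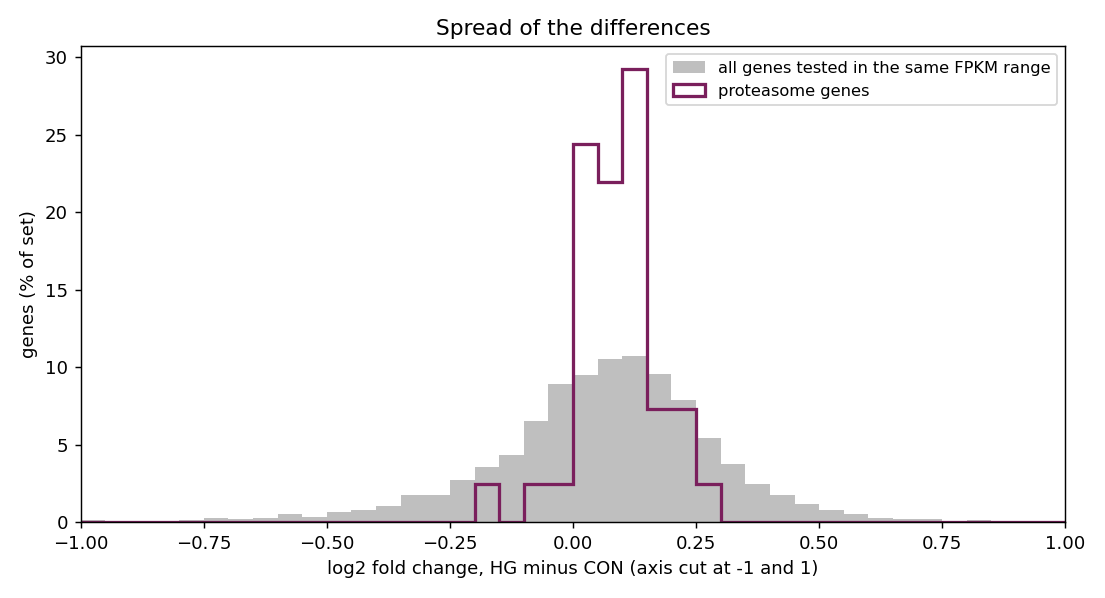
Log2 fold changes (HG minus CON, in steps of 0.05, axis from -1 to 1) as the percent of each set, for the 41 proteasome genes (line) and the 5964 genes tested in the same range of mean FPKM (grey). The proteasome genes lie between -0.15 and 0.26, while the grey set has broader flanks on both sides.

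By role, the 31 genes of constitutive 26S subunits had mean levels from 30.3 (Psmd11) to 181 FPKM (Psma7). The assembly chaperones Psmd5 and Psmd10, the inhibitor, Psme4 and both genes that are not subunits were under 30.3 FPKM, down to 9.81 FPKM for Psmd10, and the activator gene Psme1 was the highest of all at 239 FPKM. Summed over the 31 genes, CON libraries had 2742 to 2907 FPKM and HG libraries 2987 to 3140 FPKM, without overlap, a ratio of the means of 1.07. Divided by the median-of-ratios factors, the sums were 2811 to 2983 in CON and 2827 to 3093 in HG, and the groups overlapped, with a ratio of 1.01. As a percent of all FPKM, the 41 genes took 0.696 to 0.7104% in CON and 0.752 to 0.781% in HG. With FPKM rescaled to a common sum, the median difference was 0.12 for the 41 and 0.13 over all genes tested. The sums of the 41, divided by the median-of-ratios factors, were 3260 to 3455 in CON and 3251 to 3538 in HG. They overlapped, with a ratio of 0.994.

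The ratios of the core to the 19S particle and of the alpha to the beta ring overlapped between the groups. The mean FPKM of the 14 core genes over that of the 17 genes of the 19S particle was 1.61 to 1.73 in CON and 1.62 to 1.69 in HG. The mean of the alpha ring over that of the beta ring was 0.919 to 0.965 in CON and 0.949 to 1.00 in HG. That overlap came from CON4 alone, at 0.965, while the other CON libraries were at 0.919 to 0.930.

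**Figure D2:**
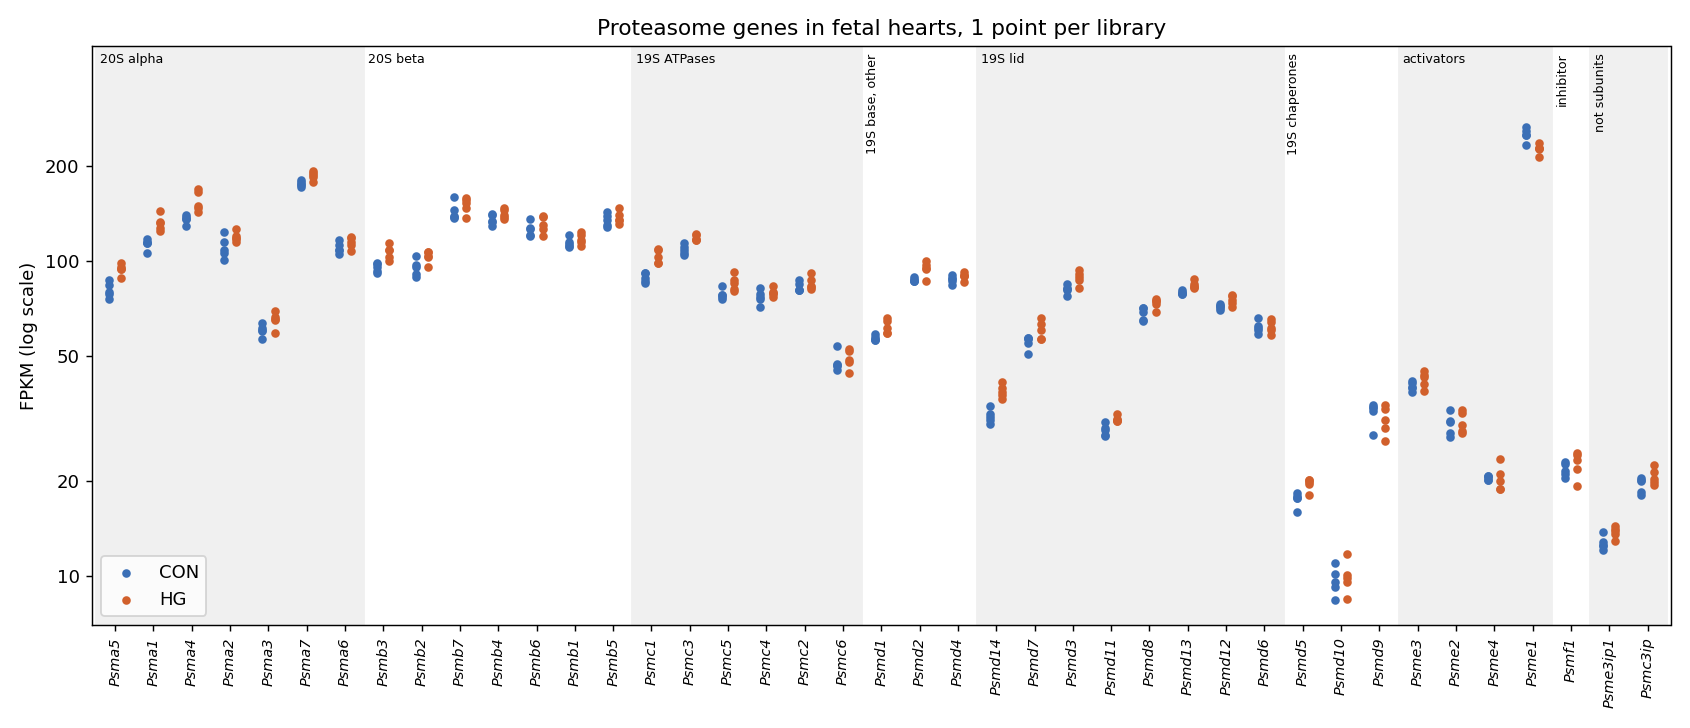
FPKM (log scale) of the 41 proteasome genes in each of the 5 CON (blue) and 5 HG (orange) libraries, grouped by role in the complex. Psme1 is the highest gene and the only one called lower in HG, and most 20S and 19S genes have their HG points level with or slightly above their CON points.

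Promoter sequence was read for 37 of the 41 genes from RefSeq (rat GRCr8, a build other than that of the files) as windows of 300 bases, 250 before the start and 50 after. The genes Psma7, Psmd6, Psmd12 and Psmd14 were not matched. The 250 bases before the start are printed for Psmc1 and Psma5, the members called higher with the smallest adjusted p among those matched, and for Psme1 and Psme2, the pair whose ratio differed between the groups. Psmc1 lies at chr6:125122247-125122496 on the plus strand, Psma5 at chr2:198584255-198584504 on the plus strand, Psme1 at chr15:33038721-33038970 on the plus strand and Psme2 at chr15:33052752-33053001 on the minus strand, all written 5′ to 3′ on the strand of the gene. Capitals mark CGGAAG, the core bound by ETS factors, and CCAAT, on either strand.
Psmc1: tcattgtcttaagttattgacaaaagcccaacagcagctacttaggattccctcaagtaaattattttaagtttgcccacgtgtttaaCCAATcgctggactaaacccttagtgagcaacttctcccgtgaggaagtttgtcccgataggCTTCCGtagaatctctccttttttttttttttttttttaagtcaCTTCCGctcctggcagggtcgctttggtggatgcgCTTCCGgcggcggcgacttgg
Psma5: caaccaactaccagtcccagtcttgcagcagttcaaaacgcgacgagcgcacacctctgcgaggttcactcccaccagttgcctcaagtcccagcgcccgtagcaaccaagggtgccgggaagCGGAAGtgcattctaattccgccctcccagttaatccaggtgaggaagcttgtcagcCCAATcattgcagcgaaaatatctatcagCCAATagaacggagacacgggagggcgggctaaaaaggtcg
Psme1: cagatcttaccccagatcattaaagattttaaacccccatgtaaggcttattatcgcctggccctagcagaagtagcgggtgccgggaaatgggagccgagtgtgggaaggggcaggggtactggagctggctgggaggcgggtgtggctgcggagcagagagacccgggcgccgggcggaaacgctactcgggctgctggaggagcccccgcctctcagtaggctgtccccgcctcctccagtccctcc
Psme2: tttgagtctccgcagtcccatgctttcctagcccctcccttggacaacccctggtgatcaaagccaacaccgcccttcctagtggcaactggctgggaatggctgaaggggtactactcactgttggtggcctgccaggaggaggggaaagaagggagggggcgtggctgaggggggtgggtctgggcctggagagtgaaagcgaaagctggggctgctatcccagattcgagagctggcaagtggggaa

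Psmc1 held CGGAAG 3 times and CCAAT 1 time, and Psma5 held them 1 time and 2 times. In the printed stretches of Psme1 and Psme2 neither was found, which says only that these letters are not in these windows. Over the whole windows, CGGAAG was in 21 of 37 proteasome promoters (56.8%), in 27.9% of the 13372 matched promoters of genes tested and in 16.6% of all 33469. CCAAT was in 20 of 37 (54.1%), against 37.1% and 37.5%. TGACNNNGC, the core of the antioxidant response element that NRF1 and NRF2 bind, was in 8 of 37 (21.6%), against 14.03% and 12.1%.

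By the call between the groups, CGGAAG was in 8 of 15 promoters of called genes and in 13 of 22 of the others. CCAAT was in 7 of 15 and 13 of 22, and TGACNNNGC in 2 of 15 and 6 of 22. These 15 are the matched genes called in either direction, not the genes called higher. They include Psme1, called lower, and lack Psmd14, called higher but not matched. Of 8 motifs searched on both strands, CCAAT and TGACNNNGC were chosen first and the other 6 were added later. Beside CGGAAG itself, GGAAGT was found in 54.1% of proteasome promoters against 26.5% of those of genes tested, and can overlap it. The share was 56.8% against 56.7% for GGCGGG, 16.2% against 15.1% for TATAA, 2.70% against 2.81% for TGACGTCA and 8.11% against 7.14% for TTCNNNGAA. Median GC content was 56.0% in the proteasome promoters and 59.7% in those of genes tested. A match is a description of letters, not a site shown to be bound.

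Among the 7 alpha ring genes, 3 were higher (Psma1, Psma4 and Psma5), against 28.4 percent of all genes tested. All 7 had a positive difference, with a median of 0.12, beside 0.09 and 9518 of 14542 positive over all genes tested. Psma5 was at 78.3, 86.9, 79.8, 83.9 and 75.8 FPKM in the CON libraries and at 94.2, 98.7, 94.3, 95.9 and 87.9 FPKM in the HG libraries. Every HG value was above every CON value. The log2 fold change was 0.22 (SE 0.044, limma, adjusted p = 0.00202). Psma1 was at 115, 117, 114, 114 and 106 FPKM in CON and at 127, 131, 132, 144 and 124 FPKM in HG, also without overlap, and it differed by 0.22 (SE 0.044, limma, adjusted p = 0.00208). Psma4 ranged from 129 to 139.9 FPKM in CON and from 142 to 169 FPKM in HG, a difference of 0.18 (SE 0.049, limma, adjusted p = 0.0101). With median-of-ratios factors none of the 3 was called, at adjusted p of 0.0579, 0.0661 and 0.169 for Psma5, Psma1 and Psma4 (limma). Of the rest of the ring, Psma2 and Psma3 had differences of 0.12 and 0.11 (adjusted p = 0.0944 and 0.0809, limma), Psma7 had a difference of 0.08 (adjusted p = 0.0597, limma) and Psma6 the smallest of the ring, 0.06 (adjusted p = 0.274, limma).

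Among the 7 beta ring genes, which include the catalytic subunits, 1 was higher, against 28.4 percent of all genes tested. Psmb3, a subunit without catalytic activity, ranged from 91.1 to 98.1 FPKM in CON and from 100.1 to 114 FPKM in HG, a log2 fold change of 0.17 (SE 0.040, limma, adjusted p = 0.00623). Its call was lost with median-of-ratios factors (adjusted p = 0.230). RefSeq lists 10 loci with names derived from Psmb3, of which 8 are pseudogenes, so that the assignment of reads to it is uncertain. None of the 3 catalytic subunits passed the test. Psmb5, the chymotrypsin-like subunit, was at 143, 138, 129, 134 and 128 FPKM in CON and at 135, 139.7, 135, 147 and 131 FPKM in HG, which overlapped, and its difference of 0.03 had a 95% confidence interval of -0.06 to 0.12 (limma, adjusted p = 0.578). Psmb6, the caspase-like subunit, had a difference of 0.05 with an interval of -0.06 to 0.15 (limma, adjusted p = 0.462). Psmb7, the trypsin-like subunit, had one of 0.06 with an interval of -0.05 to 0.18 (limma, adjusted p = 0.347). The intervals of Psmb6 and Psmb7 overlapped those of Psma5 (0.123 to 0.315) and Psma1 (0.122 to 0.315), while that of Psmb5 ended just below them. Differences between genes were not tested. The structural subunits Psmb1, Psmb2 and Psmb4 had differences of 0.04, 0.11 and 0.06 (adjusted p = 0.414, 0.0725 and 0.191, limma).

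Among the 6 genes of the ATPase ring, 3 were higher (Psmc1, Psmc3 and Psmc5), against 28.4 percent of all genes tested. The count was 1 with median-of-ratios factors and 2 with quantile normalization. The tail of Psmc1 is known to open the gate of the core. Psmc1 was at 91.8, 85.2, 86.3, 88.0 and 91.4 FPKM in CON and at 109, 98.3, 98.1, 108 and 103 FPKM in HG. The groups did not overlap, and the difference was 0.22 (SE 0.041, limma, adjusted p = 0.00108). It was called under all 22 alternatives, among which the ratio of mean FPKM kept the p-values of the main fit. Psmc3 ranged from 104 to 114 FPKM in CON and from 117 to 121 FPKM in HG, a difference of 0.12 (SE 0.033, limma, adjusted p = 0.00995), and was not called with median-of-ratios factors (adjusted p = 0.502). Psmc5 differed by 0.12 (adjusted p = 0.0381, limma), with 3 of 5 HG libraries above the highest CON library. Psmc2, Psmc4 and Psmc6 had differences of 0.04, 0.05 and 0.03, with adjusted p of 0.425, 0.384 and 0.665 (limma).

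Of the 3 genes of the 19S base that are not ATPases, both large scaffold subunits were higher, against 28.4 percent of all genes tested. That count was 0 without CON replicate 3, CON replicate 4, HG replicate 1 or HG replicate 4. It was 1 without 5 of the other 6 libraries and with quantile normalization, and 0 with median-of-ratios factors. Psmd1 ranged from 56.2 to 58.5 FPKM in CON and from 58.8 to 66.0 FPKM in HG (difference 0.12, adjusted p = 0.0282, limma). Psmd2, with 4 of 5 HG libraries above the highest CON library, differed by 0.12 as well (adjusted p = 0.0327, limma). The ubiquitin receptor Psmd4 did not pass the test, with a difference of 0.04 (adjusted p = 0.400, limma).

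Of the 8 lid genes, 5 were higher, against 28.4 percent of all genes tested. The lid held the largest difference of the 41. With median-of-ratios factors 1 lid gene was called higher, and with quantile normalization 2. With 1 library left out, 2 to 4 lid genes were higher, the count being 2 without CON replicate 2 or CON replicate 4 and 3 without CON replicate 3, CON replicate 5, HG replicate 1, HG replicate 4 or HG replicate 5. Psmd14, the deubiquitinase that removes ubiquitin chains from the substrate, was at 32.0, 34.7, 30.2, 32.5 and 31.3 FPKM in CON and at 37.5, 36.4, 38.4, 39.3 and 41.4 FPKM in HG. Every HG library was above every CON library, the mean rose from 32.2 ± 1.66 to 38.6 ± 1.89 FPKM (SD, n = 5 each), and the log2 fold change was 0.26 (SE 0.046, limma, adjusted p = 8.06e-04). It was called in all 22 alternatives, among them that with median-of-ratios factors (0.17, adjusted p = 0.00953). The ratio of mean FPKM, also among them, kept the p-values of the main fit. RefSeq lists 1 pseudogene locus named after it. Psmd7, the lid subunit that pairs with Psmd14 and lacks its activity, had a difference of 0.13 (adjusted p = 0.0557, limma), with 3 of 5 HG libraries above the highest CON library. Psmd11, with 27.9 to 30.86 FPKM in CON and 30.94 to 32.6 FPKM in HG, differed by 0.12 (SE 0.037, limma, adjusted p = 0.0249). The structural lid genes Psmd3 and Psmd8 differed by 0.12 and 0.11 (adjusted p = 0.0252 and 0.0488, limma) and Psmd13 by 0.08 (adjusted p = 0.0469, limma). Psmd6 had the smallest difference of the lid, 0.00, with an interval of -0.09 to 0.09 (limma, adjusted p = 0.958), and Psmd12 had one of 0.07 (adjusted p = 0.105, limma).

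**Figure D3:**
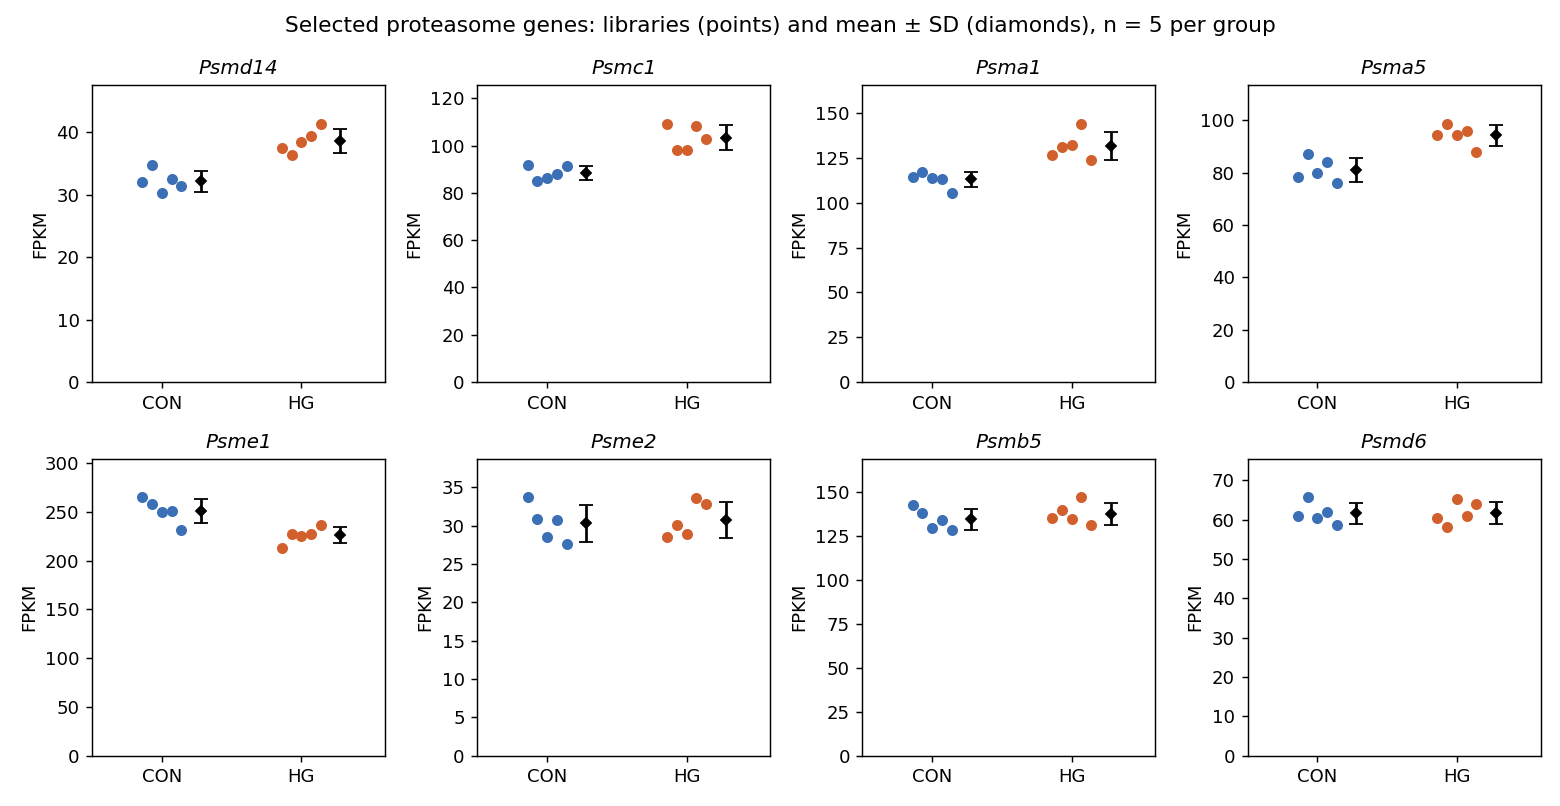
FPKM of 8 proteasome genes in each library (points; CON blue, HG orange) with the mean and SD of each group (diamond and bar, n = 5 each), all axes starting at 0. Psmd14, Psmc1, Psma1 and Psma5 do not overlap between the groups, Psme1 has 4 of 5 HG libraries below the lowest CON library, and Psme2, Psmb5 and Psmd6 overlap.

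Of the 3 chaperones that assemble the 19S base, 1 was higher, against 28.4 percent of all genes tested. Psmd5 ranged from 16.0 to 18.3 FPKM in CON and from 18.0 to 20.2 FPKM in HG, a difference of 0.16 (SE 0.048, limma, adjusted p = 0.0177), which was lost with median-of-ratios factors (0.264) and quantile normalization (0.209). Psmd9 had a difference of -0.08 (interval -0.25 to 0.09, limma, adjusted p = 0.444) and Psmd10, also known as gankyrin, one of 0.04 (interval -0.15 to 0.23, limma, adjusted p = 0.766). Psmd10 was the shallowest of the 41, with a median of 242 reads per library. Psmf1, which is known as an inhibitor of the core, had a difference of 0.06 (interval -0.08 to 0.20, limma, adjusted p = 0.514).

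None of the 4 activator genes was higher, and 1 was lower, against 28.4 percent higher and 11.8 percent lower of all genes tested. Psme1 encodes the alpha subunit of the activator PA28, an alternative cap best known for its role in making peptides for antigen presentation. It was at 265, 258, 250.01, 251 and 232 FPKM in CON and at 213, 228, 226, 228 and 236 FPKM in HG. The groups overlapped in 1 pair of libraries, CON5 and HG5, and 4 of 5 HG libraries were below the lowest CON library. The mean fell from 251 ± 12.3 to 226 ± 8.33 FPKM (SD, n = 5 each), a log2 fold change of -0.15 (SE 0.041, limma, adjusted p = 0.0115). The difference was -0.24 with median-of-ratios factors (adjusted p = 9.28e-04) and -0.08 with quantile normalization, where it was no longer called (adjusted p = 0.104). Of the 22 alternatives, that was the only one that lost the call, though the ratio of mean FPKM kept the p-values of the main fit.

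Psme2, the beta subunit that assembles with Psme1 into 1 ring, did not pass the test. It was at 33.7, 30.9, 28.5, 30.8 and 27.6 FPKM in CON and at 28.5, 30.1, 28.9, 33.7 and 32.9 FPKM in HG, with the groups spread over the same range. The difference was 0.02 with an interval of -0.11 to 0.16 (limma, adjusted p = 0.797). Within libraries, the FPKM of Psme1 over that of Psme2 was 7.86 to 8.78 in CON and 6.76 to 7.81 in HG, without overlap. A factor applied to a whole library leaves this ratio as it is, whereas quantile normalization moved the differences of Psme1 and Psme2 to -0.08 and -0.03. Over the mean of the 7 alpha ring genes, Psme1 was 2.17 to 2.34 in CON and 1.76 to 1.92 in HG. Psme1 was the only gene called lower and all 7 alpha ring genes were above 0, so that this ratio repeats those differences. How often ratios of other gene pairs do not overlap was not counted. RefSeq lists 3 pseudogene loci named after each of Psme1 and Psme2, so that the assignment of reads to them is uncertain. Psme3 and Psme4, which encode the nuclear activators PA28 gamma and PA200, had differences of 0.07 (interval -0.03 to 0.17, limma, adjusted p = 0.231) and -0.01 (interval -0.13 to 0.12, limma, adjusted p = 0.946).

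**Figure D4:**
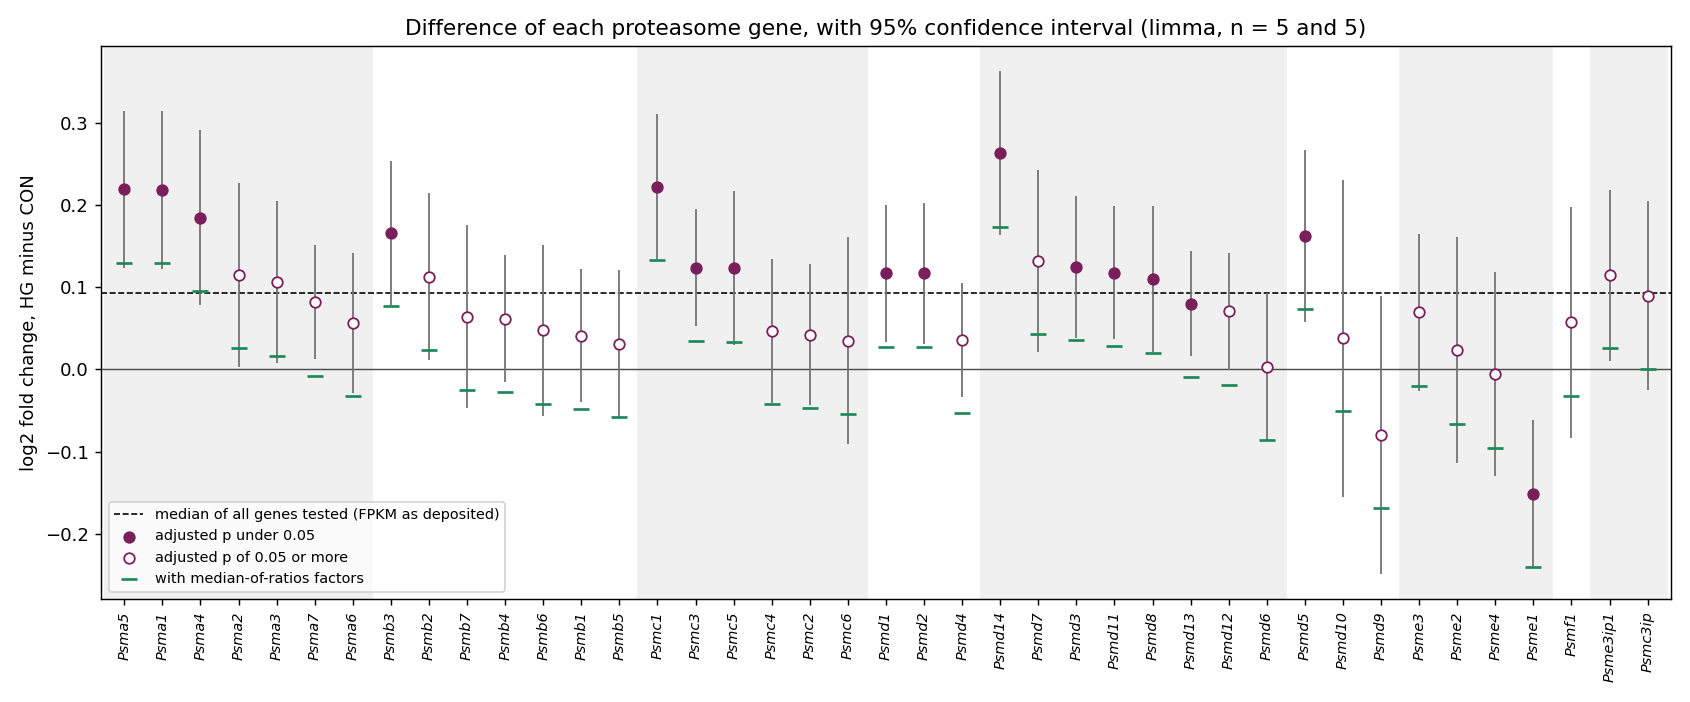
Log2 fold change of each of the 41 genes (HG minus CON, limma, n = 5 per group) with its 95% confidence interval, grouped by role. Filled points have an adjusted p under 0.05, the dashed line is the median of all genes tested (0.09), and green dashes are the same differences with median-of-ratios factors, which lie lower by about that median and leave Psmd14 (0.17) and Psmc1 (0.13) the highest and Psme1 (-0.24) the lowest.

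The immunoproteasome subunits, which replace the catalytic ones when cells meet interferon, were not called. Psmb8 and Psmb9 were low, with means of 0.729 and 0.742 FPKM in CON and 0.777 and 0.767 FPKM in HG, while Psmb10 had means of 7.61 and 7.91 FPKM. The adjusted p of the 3 were 0.945, 0.730 and 0.617 (limma). The mean of the 3 standard catalytic genes was 42.5 to 47.9 times that of the immunoproteasome genes in CON libraries and 38.3 to 52.7 times in HG libraries.

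Genes that act with the proteasome were described by lists of their roles, and none of the genes in them was called lower, with 28.4 percent of all genes called higher and 11.8 percent lower. With median-of-ratios factors none was called higher and 2 were lower, Pomp (-0.14, adjusted p = 0.0275) and Ngly1 (-0.27, adjusted p = 0.00900, limma). The 5 genes that assemble the core (Psmg1 to Psmg4 and Pomp) were not called, nor were the 19S subunit genes Adrm1 and Sem1, a receptor for ubiquitin and a small lid subunit. Of 6 genes of deubiquitinases and regulators bound to the 19S particle, 3 were higher, Usp14 (0.19, adjusted p = 0.0228), Uchl5 (0.28, adjusted p = 0.03003) and Txnl1 (0.11, adjusted p = 0.0350, limma). That count was 0 without HG replicate 4 and without HG replicate 5, 1 without CON replicate 3, CON replicate 5 or HG replicate 3, and 0 with quantile normalization, median-of-ratios factors or the replicate block. Usp14 and Uchl5 are the deubiquitinases that join the particle beside Psmd14.

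Of 8 genes that bring substrates to the proteasome, 3 were higher, against the same 28.4 percent of all genes. Rad23b, a shuttle factor, differed by 0.16 (adjusted p = 0.00711, limma), and Vcp and Ufd1, the unfoldase and its cofactor, by 0.11 and 0.15 (adjusted p = 0.0187 and 0.00418, limma). Of 7 genes of the transcription factors of proteasome genes and their processing, 2 were higher, a share close to that of all genes. Nfe2l1 encodes NRF1, the factor known to raise proteasome genes when proteasomes are short. It went from a mean of 36.3 to 40.0 FPKM without overlap of the groups (0.14, adjusted p = 0.0182, limma). Of all genes tested, 19.3 percent were higher without overlap. The call of Nfe2l1 was lost with median-of-ratios factors (adjusted p = 0.427) and quantile normalization (adjusted p = 0.157, limma). The small Maf partner Mafg differed by 0.24 (adjusted p = 0.00772, limma), while Nfe2l2 had a difference of -0.05 (adjusted p = 0.655, limma). Ngly1, of the same list, had one of -0.18 (adjusted p = 0.0697, limma), and was called lower with quantile normalization (-0.27, adjusted p = 0.00791). Of the 7, 5 were above 0 and 2 below.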

How the data were processed

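Polyadenylated RNA of fetal rat hearts was sequenced from TruSeq Stranded mRNA libraries, 5 CON and 5 HG. The authors deposited FPKM values per gene, with GO and KEGG annotation. The submitters' processing notes name fastp, HISAT2, HTSeq, R 3.2.0 and the build mRatBN7.2, and the study used DESeq. The study's methods speak of RNA pooled from the samples, while the labels and the table hold 10 separate libraries, which were used as such. No per-sample column was left unused (0).

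After a filter at an average of 0.1 FPKM, which kept 14542 of 18025 genes, log2(FPKM + 0.1) of both groups went into a limma fit (version 3.58.1, R 4.3.3; trend on expression, no covariate, Benjamini-Hochberg adjustment over all genes tested). Fold changes are on that scale. FPKM are no counts, so that a count model was not the main test. Reads were recovered from FPKM steps (100% of genes gave whole reads within 0.05 in every library) and fitted with voom, an alternative added after the data were seen, which called 4234 genes higher and 1727 lower, among them 13 proteasome genes higher and 1 lower. Intervals of reads cover counting error only. On simulated data of CON against HG with 14523 genes tested, 91 and 98 genes changed by log2 1 and 2 were called of 199 changed genes tested, with 12 unchanged genes called. Changes as small as those of the proteasome genes, and a shift of the typical gene between the groups, were not simulated.

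The genes and the lists of related genes and markers were chosen with earlier results of these data known, so that no p-value is given for a list. Some listed genes are not reported here. Named with full statistics were the 10 called genes with the smallest adjusted p, the catalytic subunits, the activators and the inhibitor; Psmd7, Psmd6, Psma7, Psma6 and the lower calls were also named, as were all genes whose call changed with the scaling. Results were recomputed with other pseudocounts (0.01, 1), without the filter or with one at 1 FPKM, after scaling by median-of-ratios factors, by quantiles, without hemoglobin genes or to a common FPKM sum, with the replicate number as a block, without the trend, from ratios of mean FPKM, with voom and without each library. Python 3.11.15 was used, with matplotlib 3.10.9 for figures, pandas 2.3.3 and numpy 2.4.6.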

Additional observations from a re-analysis of the deposited data

Results flagged for a closer look

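In 3 of 82 groups of 5 libraries examined, 1 library lay apart from the others by more than Dixon's 95% critical value of 0.71 for the gap over the range, where chance gives about 1 in 20 groups. Psmc6, an ATPase ring gene, was at 53.6 FPKM in CON replicate 2 and at 44.9 to 47.1 FPKM in the other CON libraries. Psmd9, a chaperone of the 19S base, was at 28.02 FPKM in the same library and at 33.4 to 34.8 FPKM in the others. Psmd5, another such chaperone, was at 18.0 FPKM in HG replicate 1 and at 19.6 to 20.2 FPKM in the other HG libraries. Without CON replicate 2 the difference of Psmc6 was 0.08 in place of 0.03 and that of Psmd9 was -0.14 in place of -0.08, and without HG replicate 1 that of Psmd5 was 0.19 in place of 0.16.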

How the results depend on the processing

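The count of 15 genes called higher was 2 with median-of-ratios factors, 9 with hemoglobin genes left out, 9 with the replicate number as a block, 9 without the trend and 23 with a common FPKM sum, and ranged from 9 to 14 with 1 library left out. It was 10 to 15 under the other alternatives, of which the ratio of mean FPKM kept the p-values of the main fit and so could not change the count. The count of genes called lower was 1 in every alternative but quantile normalization, where it was 0, and 0 genes were past the fold threshold in each. The median difference of 0.08 was -0.0082 with median-of-ratios factors and 0.12 with a common sum, and 0.074 to 0.097 with 1 library left out. Libraries with the same replicate number did not deviate together (r of 0.11, -0.07, -0.13, -0.03 and 0.01), and none correlated best with its own number, so that the numbers pair nothing. Under the block, Psme1, Psmd14 and Psmc1 were still called.

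With median-of-ratios factors 18 genes turned from above to below 0: Psma6 (-0.033), Psma7 (-0.0082), Psmb1 (-0.049), Psmb4 (-0.028), Psmb5 (-0.058), Psmb6 (-0.042), Psmb7 (-0.026), Psmc2 (-0.047), Psmc4 (-0.043), Psmc6 (-0.055), Psmd10 (-0.051), Psmd12 (-0.019), Psmd13 (-0.0094), Psmd4 (-0.053), Psmd6 (-0.086), Psme2 (-0.066), Psme3 (-0.020) and Psmf1 (-0.032). Quantile normalization turned Psmc6 (-0.0038), Psmd10 (-0.049), Psmd6 (-0.024), Psme2 (-0.034) and Psmf1 (-0.017), leaving out hemoglobin turned Psmd6 (-0.012), and a common sum turned Psme4 (0.032). With 1 library left out, 4 genes changed sign, Psmd10 (-0.024 to 0.094), Psmd6 (-0.017 to 0.027), Psme2 (-0.0097 to 0.062) and Psme4 (-0.057 to 0.022). Of these genes only Psmd13 had been called. Median-of-ratios factors (0.967 to 0.9752 in CON and 1.02 to 1.06 in HG) move every gene of a library alike, and which scale fits these hearts was not tested. The 5 libraries per group limited the precision, with standard errors of 0.030 to 0.089.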

Other observations

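In the KEGG annotation deposited with the table, 37 of the 41 genes were in the Proteasome pathway of 46 genes. The 4 outside it were the assembly chaperones Psmd5 and Psmd10 and both genes that are not subunits, Psmc3ip (0.09, limma, adjusted p = 0.201) and Psme3ip1 (0.11, limma, adjusted p = 0.0751). Of the 41, 3 were also in the antigen processing pathway, the activator genes Psme1, Psme2 and Psme3.

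In RefSeq, 18 of the 41 genes had 49 loci with names derived from theirs. Of these, LOC100360846, a copy that RefSeq names after Psmb6, was among the genes listed. It was at 1.58 to 5.27 FPKM in CON and 3.38 to 4.43 FPKM in HG, which overlapped (adjusted p = 0.0721, limma). That overlap came from CON2 alone, at 5.27 FPKM, while the other CON libraries were at 1.58 to 2.46 FPKM.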
